A study of Arabidopsis thaliana with 18 samples.

Results

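The stage change inside the lej1 mutant of Arabidopsis thaliana (written KO) was described from 6 of the 18 arrays of the series: 3 of open KO flowers, floral stages 13 to 14, when the anthers shed pollen, and 3 of unopened KO buds, stages 1 to 12. The arrays were chosen by their titles, and every probe set except the 64 controls was considered, which left 22746 of 22810. The other groups also entered the filter and the shared estimate of the spread in the fit, and are otherwise given beside the mutant. They were open flowers and buds of a line that expresses AtLEJ1 from the 35S promoter, labelled 35S:AtLEJ1/5-8 (OE). The rest were open flowers and buds of wild type (WT), and each of these groups had 3 arrays. All plants were 5 weeks old and grown under conditions labelled LD. KO and OE are named as 1 mutant and 1 line, the 35S promoter drives expression in most tissues, and neither the allele of the mutant nor the number of plants behind a sample is given. Titles number the samples of each group as biological replicates 1 to 3.

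LEJ1 is a small protein built of CBS domains, also known as CBSX2, and it is known to bind thioredoxins of the chloroplast. In Arabidopsis anthers the tapetum, the innermost wall layer, feeds the developing pollen, makes the outer pollen wall and coat, and then breaks down before the flower opens. The anther later splits, pollen lands on the stigma and pollen tubes grow, while petals expand, nectaries secrete and the ovules become ready for fertilisation.

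Each value is the deposited intensity of a probe set, 1 value for the brightness of its probes together after the submitters' scaling. KO array medians lay between 218 and 232 units, and the trimmed mean of every array lay between 499.82 and 499.85. A probe set was tested if it lay above the 40th percentile of its array, 129 to 138 units on the KO arrays, on at least 3 of the 18 arrays. This held for 15113 probe sets, of which 8204 name 1 gene in the annotation, and 12044 lay above that percentile on all 6 KO arrays. Changes are differences of log2(intensity + 16), KO open flowers minus KO buds, with the standard error (SE) and the Benjamini-Hochberg adjusted p of limma, a linear model fitted to all probe sets. Calls were made where the adjusted p was under 0.05. Where 1 stage lay below that percentile, the size of the change depends on the added 16 units. In whole flowers, fewer cells of a type and less RNA per cell cannot be told apart.

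Replicate 1 of the KO open flowers stood apart from replicates 2 and 3. On the log2 scale the 3 arrays of open flowers correlated with each other at 0.947 to 0.979 and the 3 of buds at 0.961 to 0.974, against 0.784 to 0.848 between the stages. The first principal component of the 6 arrays, 76.9% of the variance, placed open flowers at -42.6, -61.7 and -54.7 and buds at 55.5, 49.7 and 53.8. The second, 12.2%, set replicate 1 of both stages (34.9 and 24.3) apart from replicates 2 and 3 (-17.8 to -11.2). Where leaving out 1 KO array ended the call of a gene whose change is given or moved that change by more than 1.5-fold, the value without that array is given, as a range for the 15 largest falls. Control probe sets for the 3' and 5' ends of actin, GAPDH and ubiquitin, whose ratio is a sign of RNA integrity, gave a mean log2 3'/5' ratio of 1.07 ± 0.088 in KO open flowers and 1.01 ± 0.075 in KO buds (SD, n = 3). LEJ1 is named by no probe set of the annotation used, so the label of the mutant was not checked with it. Of markers of other organs, the root genes PYK10 and EXPA7 were too dim to test, with at most 105 units on any KO array, and no seed or silique marker is named on the array.

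Between the stages of the mutant, 3160 probe sets were called, 20.9% of those tested: 1679 higher in open flowers (11.1%) and 1481 lower (9.8%). Rises outnumbered falls, while the deepest changes were mostly falls. At least 2-fold were 951 rises and 702 falls, at least 8-fold 89 rises and 221 falls, and at least 32-fold 8 rises and 50 falls. The median size of the change was 1.12 among rises and 0.96 among falls on the log2 scale. In 309 of the rises all open-flower arrays lay above the 40th percentile and no bud array did, and in 342 of the falls this was the other way round. The values of the 2 stages did not overlap for 3098 of the calls, and for 5137 (34%) of all tested probe sets. Of the calls, 2147 passed in each of the 6 fits that left out 1 KO array (1189 higher, 958 lower).

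The 15 largest falls among calls of 1 gene included lipid transfer protein genes and genes known from the tapetum. AT1G68875 read 876, 1.64 and 152 units in KO open flowers (replicates 1 to 3), against 11658, 8051 and 12578 units in KO buds, a change of -6.26 ± 1.13 (SE, adjusted p = 4.0e-04). The lipid transfer protein gene AT5G62080 read 264, 6.93 and 85.5 units in KO open flowers, against 6154, 5392 and 8156 in KO buds (-6.23 ± 0.64). AT1G66850, another lipid transfer protein gene and among the brightest probe sets of buds, read 1931, 13.1 and 343 units in KO open flowers, against 22131, 16275 and 22619.7 in KO buds (-6.21 ± 1.14). In all of these the bud values lay close together while the open-flower values ran over more than 10-fold, with replicate 1 the highest and replicate 2 the lowest, and the stages did not overlap. A9, long used as a marker gene of the tapetum, read 121, 10.1 and 95.8 units in KO open flowers, against 4350.3, 3683 and 4619 in KO buds (-5.84 ± 0.46, adjusted p = 3.0e-08). ATA27, a tapetal beta-glucosidase gene, read 908, 41.6 and 178 units in KO open flowers, against 14354, 9779 and 11427 in KO buds (-5.75 ± 0.90). LCR66, for a small cysteine-rich secreted protein, read 183, 3.69 and 80.7 units in KO open flowers, against 4317, 3684 and 5281 in KO buds (-5.92 ± 0.61). The same order of the 3 open-flower arrays held again in each of these genes.

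The other 9 of the 15 largest falls were AT2G03740 (-6.13), AT5G61605 (-5.91), the lipid transfer protein gene AT3G52130 (-5.84), AT1G02813 (-5.76), AT5G48210 (-5.75), AT1G47980 (-5.64), AT1G44224 (-5.61), AT1G28375 (-5.61) and AT1G23570 (-5.60). In all 15 the highest of the open-flower arrays was replicate 1 and the lowest replicate 2. Over the 15 genes replicate 1 of open flowers held 86.5 to 1931 units, replicate 2 0.848 to 41.6 and replicate 3 4.61 to 343, against 1316 to 22620 units in the bud arrays. The changes of the 15 lay between -6.26 and -5.60. They lay between -7.62 and -6.06 without replicate 1 of the open flowers, and between -5.53 and -4.59 without replicate 2, a shift of more than 1.5-fold in 12 of the 15 genes each time. All 15 calls held without any 1 KO array (highest adjusted p = 0.00283), and all 15 genes were also called lower in open flowers of WT and of OE.

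**Figure D1:**
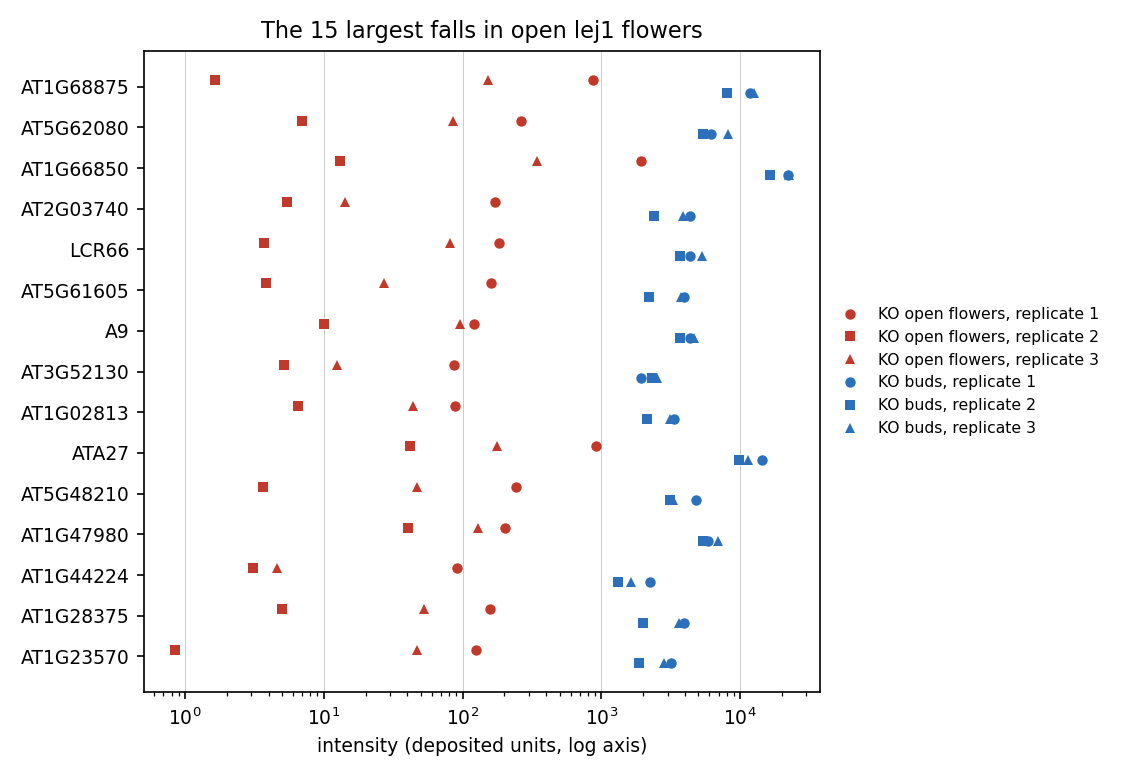
Intensity (deposited units, log axis) of the 15 single-gene probe sets with the largest falls, each KO open-flower array in red above each KO bud array in blue; circles are replicate 1, squares replicate 2, triangles replicate 3. The bud arrays lie between 1316 and 22620 units, and among open flowers the circle is always the highest and the square always the lowest.

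Genes whose transcripts were brightest in buds included, besides AT1G66850, ATA27 and AT1G68875, AT2G20870 and AT5G33370, which encodes a GDSL-type lipase. AT2G20870 read 3464, 657 and 2122 units in KO open flowers, against 18544, 21574 and 22587 in KO buds (-3.61 ± 0.39, or -2.93 without replicate 2 of the open flowers). AT5G33370 read 2054, 916 and 1282 units in KO open flowers, against 10820.0, 11357 and 12220.5 in KO buds (-3.08 ± 0.22). Both remained well above the median of their arrays in open flowers.

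The spread among the open-flower arrays was also seen in probe sets picked by their change in WT. The filter and the spread behind the WT calls used all 18 arrays, so this choice is not independent of the KO arrays. In WT, 139 probe sets were called lower by at least 16-fold in open flowers, and all 139 were called lower in KO too. Their median intensity was 121, 22.0 and 49.4 units in KO open flowers (replicates 1 to 3), against 2251, 1717 and 1769 in KO buds. In OE open flowers it was 37.4, 17 and 19.8 units, and in WT open flowers 41.4, 27.4 and 18.3. Of the 139, 65, 9 and 23 lay above the 40th percentile in the 3 KO open-flower arrays, 19, 7 and 9 in those of OE, and 28, 14 and 11 in those of WT. Replicate 1 of KO open flowers was thus the highest of all 9 open-flower arrays, by the median and by the count. Within OE and within WT, replicate 1 was also the highest open-flower array by each. Replicate 2 of KO was within the range of the other genotypes. Replicate 3 of KO lay above the OE and WT open-flower arrays by its median and within their range by its count. The median change was -4.67 in KO (-5.18 without replicate 1 of the open flowers), -5.36 in OE and -5.27 in WT, the last being the values that chose the probe sets. The change was less negative than in WT for 127 of the 139 in KO and for 59 of the 139 in OE. Because falls in WT chose the 139, this choice favours less negative changes in KO and OE. The 139 probe sets are also not independent of each other. The difference between genotypes was called for none of these in KO against WT. The 102 probe sets called higher by at least 8-fold in WT were all called higher in KO, with a median change of 3.37 in KO, 3.08 in OE and 3.56 in WT, and their median intensity was 626, 627 and 595 units in KO open flowers, against 38.0, 41.0 and 47.1 in KO buds. On the rising genes the 3 KO open-flower arrays thus lay close together.

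The 15 largest rises among calls of 1 gene included 2 peroxidase genes and 2 genes of the pectin methylesterase inhibitor family. AT2G37130, a class III peroxidase gene, read 895, 3484 and 2501 units in KO open flowers, against 21.4, 3.30 and 43.8 in KO buds (5.83 ± 0.57, adjusted p = 3.8e-07). BAN, for the anthocyanidin reductase that makes the precursors of condensed tannins in the seed coat, read 1096, 767 and 1519.6 units in KO open flowers, against 2.08, 7.63 and 2.89 in KO buds (5.78 ± 0.33, adjusted p = 1.4e-09). AT1G56100, of the pectin methylesterase inhibitor family, read 1705, 1176 and 1805 units in KO open flowers, against 4.90, 35.2 and 35.1 in KO buds (5.35 ± 0.47). In each of them no bud array reached the 40th percentile of its array. AT4G15750, of the same inhibitor family, read 2846, 1869 and 2739.9 units in KO open flowers, against 20.9, 75.9 and 78.6 in KO buds (5.17 ± 0.44). AT5G64120, another peroxidase gene, read 1471, 1789 and 1603 units in KO open flowers, against 84.8, 42.4 and 5.89 in KO buds (5.01 ± 0.39, or 4.41 without replicate 3 of the buds). The defensin-like gene AT3G24510 read 785, 704 and 1056 units in KO open flowers, against 1.43, 20.4 and 2.20 in KO buds (5.24 ± 0.43). Replicate 1 took no fixed place among the open-flower arrays here: it was the highest in 4 of the 15 largest rises.

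CYP71B31, for a cytochrome P450 that oxidises linalool in flowers, read 4083, 1567 and 1179 units in KO open flowers, against 52.4, 142 and 12.8 in KO buds (4.87 ± 0.70, adjusted p = 3.3e-05). Its values spread widely at both stages without overlap, and the change was 5.48 without replicate 2 and 4.25 without replicate 3 of the buds. AT2G43590, of the chitinase family, read 392.1, 570.0 and 462 units in KO open flowers, against 6.84, 5.50 and 4.91 in KO buds (4.48 ± 0.31). The other 7 of the 15 were AT5G39520 (4.44), AT4G33860 of glycosyl hydrolase family 10 (4.37), AT1G16950 (4.25), AT5G47350 (4.08), AT3G04540 (4.06), AT5G40690 (3.91) and the carboxylesterase gene AT1G68620 (3.84). In 13 of the 15 all bud arrays lay at or below the 40th percentile. All 15 calls held without any 1 KO array (highest adjusted p = 3.7e-04), and leaving out replicate 1, 2 or 3 of the open flowers moved none of the 15 by more than 1.5-fold. All 15 were also called higher in WT, and 14 in OE, all but AT2G43590.

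**Figure D2:**
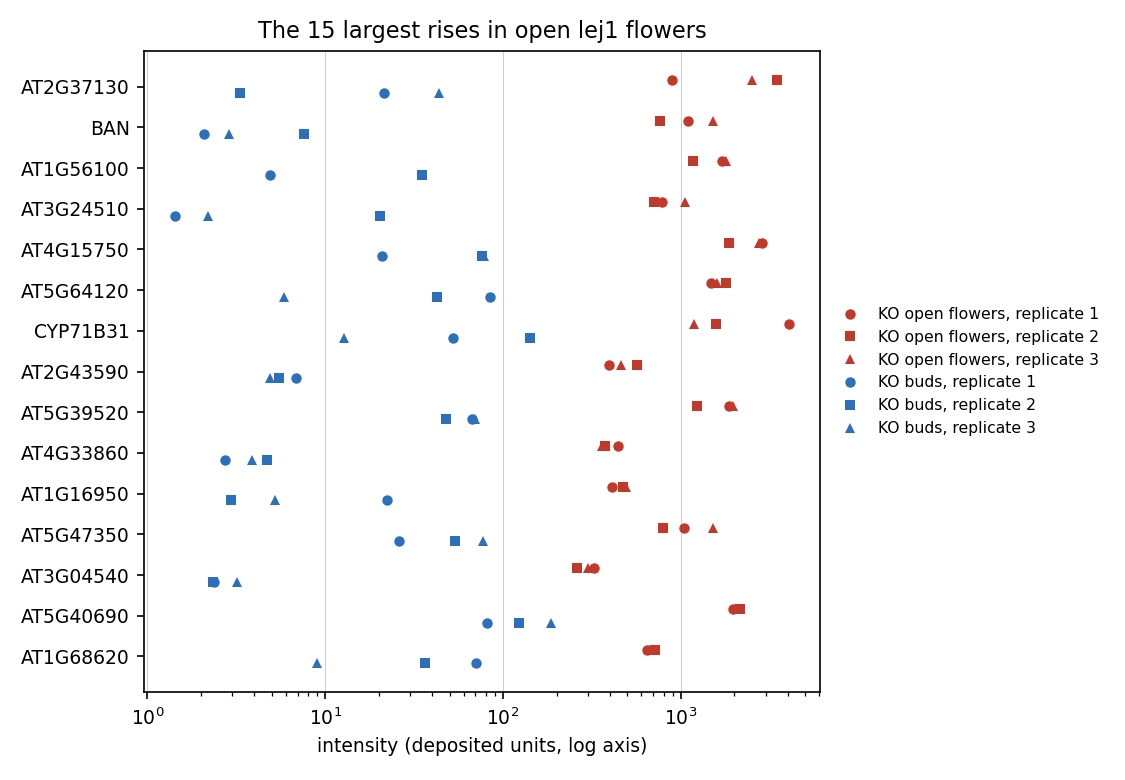
Intensity (deposited units, log axis) of the 15 single-gene probe sets with the largest rises, each KO open-flower array in red above each KO bud array in blue; circles are replicate 1, squares replicate 2, triangles replicate 3. The open-flower arrays lie between 262 and 4083 units and the bud arrays between 1.43 and 187.

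Genes whose transcripts were brightest among the rises were abundant at both stages. THI2.1, a thionin gene known as a jasmonate-inducible defence gene, read 21076, 20695 and 18418 units in KO open flowers, against 7446, 8319.7 and 9759 in KO buds (1.24 ± 0.11, adjusted p = 2.1e-07). GILT, of the gamma-interferon-inducible thiol reductase family, read 17659, 14046 and 18056 units in KO open flowers, against 1680.4, 3480.1 and 3365 in KO buds (2.60 ± 0.34). COR47, a dehydrin gene, read 12091, 13361 and 10349 units in KO open flowers, against 3535, 4736 and 5266 in KO buds (1.41 ± 0.16). In none of the 3 genes did the stages overlap, and GILT was lowest in replicate 1 of the buds. AT1G09310 changed by 0.68 ± 0.12. AT5G45880 had the smallest change of the 5, 0.44 ± 0.14 (adjusted p = 0.0259). Its call was lost without replicate 1 or 3 of the open flowers (adjusted p = 0.0654 and 0.125) and without any 1 of the bud arrays (0.0516 to 0.0734).

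The gene lists below hold 1 probe set per gene. Only members that a probe set names alone and that passed the filter are counted. In most lists the untested genes mainly lacked such a probe set in the annotation, which does not make them dim. So named were 6 of 32 tapetum, 6 of 33 photosynthesis and 4 of 44 cell cycle genes, and all of these were tested. Of the 58 UGT symbols 47 were so named and 22 tested. The filter kept a member through either stage of any genotype, so the counts describe the tested members and not the whole list. Over all tested probe sets 11.1% were called higher and 9.8% lower, and the median change was -0.03.

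Genes of the tapetum and pollen wall fell: of 32 listed, 6 were tested and all 6 were called lower, with a median of -5.47. Besides A9 and ATA27 these were SHT, for the tapetal enzyme that makes hydroxycinnamoyl spermidines of the pollen wall (-5.41 ± 0.54), UPEX1, for a glycosyltransferase of exine patterning (-5.52 ± 0.48), EXL5, for an extracellular lipase of the pollen coat (-5.19 ± 0.66), and SWEET8, for a sugar transporter needed for exine formation (-2.91 ± 0.24). SWEET8 read 439, 187 and 298 units in KO open flowers, against 2229, 2444 and 2219 in KO buds, the smallest fall of the 6. UPEX1 read 239, 27.8 and 94.5 units in KO open flowers, against 5559.8, 4034 and 5284 in KO buds. The summed intensity of the 6 was 2146, 280.0 and 755 units in KO open flowers, against 33417, 24089 and 28843 in KO buds, with replicate 1 of open flowers again the highest. Without that array the changes of SHT, EXL5 and UPEX1 were -6.22, -6.16 and -6.15, and without replicate 2 of the open flowers they were -4.56, -4.45 and -4.88.

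Of 22 regulators of anther development 5 were tested, and 4 were called lower. Of the tested genes, SPL and EMS1 are known to act early, when anther wall layers are laid down. SPL, for the transcription factor that starts sporogenesis, read 7.77, 6.25 and 5.04 units in KO open flowers, against 203, 173 and 279.9 in KO buds (-3.37 ± 0.24, adjusted p = 1.2e-08). AMS, for a bHLH factor that the tapetum needs, read 100.4, 13.1 and 19.2 units in KO open flowers, against 859, 987 and 1029 in KO buds (-4.30 ± 0.38, or -4.92 without replicate 1 of the open flowers). bHLH89 and bHLH91, for further tapetal bHLH factors, changed by -3.99 ± 0.36 and -2.99 ± 0.33. In these 4 genes all open-flower arrays lay below the 40th percentile. EMS1, for the receptor kinase that specifies the tapetum, was not called at 0.15 ± 0.20, with 966, 727 and 1054 units in KO open flowers, against 916, 804 and 736 in KO buds. SPL was the 1 of the 4 in which replicates 1 to 3 of the open flowers lay within 3 units.

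The list for the endothecium, a wall layer of the anther, and for anther opening also held falls. ADPG1, for a polygalacturonase that loosens cell walls, read 102, 79.8 and 129 units in KO open flowers, against 384, 216 and 358 in KO buds (-1.47 ± 0.25). RBOHE, for an NADPH oxidase active in tapetal breakdown, read 2.71, 47.5 and 39.3 units in KO open flowers, against 144, 240.1 and 205 in KO buds (-2.37 ± 0.42). These were the 2 tested members of 14 listed, and they did not overlap between the stages. In the lignin list the peroxidase gene PRX52 rose, with 567, 584 and 508 units in KO open flowers, against 27.4, 50.9 and 37.4 in KO buds (3.40 ± 0.29), and HCT, of the phenylpropanoid pathway, was not called at -0.23 ± 0.20. Those were the 2 tested of 21.

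Genes of mature pollen went both ways: of 31 listed, 12 were tested, 5 rose, 4 fell and 3 were not called, with a median of 0.27. Among the receptor kinases of the pollen tube, ANX2 read 715, 471 and 672 units in KO open flowers, against 130.2, 134 and 44.8 in KO buds (2.51 ± 0.33, adjusted p = 1.3e-05). BUPS1, for a partner of the ANX kinases, read 1096, 749.9 and 944 units in KO open flowers, against 359, 389 and 251 in KO buds (1.44 ± 0.23), and BUPS2 changed by 0.90 ± 0.21. ANX1 had a change of 0.80 ± 0.33 that was not called (adjusted p = 0.0977). The pollen tubulin gene TUA1 read 2735, 1975 and 2287 units in KO open flowers, against 908, 1042 and 709.8 in KO buds (1.38 ± 0.16), and the rise of AT5G45880 is given above. The falls were those of AtVEX1, also known as the pollen sugar transporter gene SWEET5, of the male-gamete histone gene MGH3, and of the MADS-box factor genes AGL104 and AGL66. AtVEX1 read 172, 55.9 and 105 units in KO open flowers, against 2603, 2606 and 1769 in KO buds (-4.29 ± 0.27). MGH3, AGL104 and AGL66 changed by -1.45 ± 0.22, -1.35 ± 0.18 and -0.64 ± 0.21. The call of AGL66 was lost in 5 of the 6 fits without 1 KO array, all but that without replicate 1 of the open flowers (adjusted p = 0.0755 to 0.200). AGL65 and AGL30, of the same group of factors, were not called (0.10 and -0.20).

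The RALF peptides are small secreted ligands, and the ANX and BUPS kinases are known receptors for several of them in pollen tubes. Of 32 genes whose symbol begins with RALFL, 9 were tested, 4 rose and 2 fell. RALFL28 read 339.6, 382 and 469 units in KO open flowers, against 17.1, 27.0 and 26.3 in KO buds (3.38 ± 0.25, adjusted p = 1.4e-08). RALFL26 read 5089.8, 4325 and 4283 units in KO open flowers, against 713, 1151 and 813 in KO buds (2.36 ± 0.31). RALFL25 read 4045, 2371 and 3780.5 units in KO open flowers, against 787, 898 and 715 in KO buds (2.03 ± 0.23). RALFL18 changed by 2.14 ± 0.41, and no stage overlapped in these 4. RALFL34 and RALFL31 fell, by 0.67 and 0.47 on the log2 scale. The call of RALFL34 was lost without replicate 2 of the open flowers (adjusted p = 0.0614) or replicate 1 of the buds (0.0572), and that of RALFL31 in 5 of the 6 fits without 1 KO array (0.0616 to 0.184), all but that without replicate 2 of the buds. RALFL24, RALFL32 and RALFL33 were not called, at -0.06, 0.12 and 0.14.

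The LCR genes, for low-molecular-weight cysteine-rich proteins, also went both ways. Of 81 such symbols 6 were tested, 3 rose and 2 fell. LCR80 read 249, 260.0 and 198 units in KO open flowers, against 2.21, 4.56 and 5.40 in KO buds (3.64 ± 0.24). LCR72 read 3424, 2082 and 2855 units in KO open flowers, against 792, 836 and 677 in KO buds (1.81 ± 0.22), and LCR24 changed by 2.79 ± 0.31. LCR66, described above, and LCR68 (-0.72 ± 0.14) fell, and LCR69, the brightest of them in open flowers, was not called at -0.36 ± 0.19. The 3 rises and 2 falls kept their calls without any 1 KO array.

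Genes of flavonoid and anthocyanin synthesis mostly rose: of 23 listed, 6 were tested, 4 rose and 1 fell, with a median of 2.26. DFR, for the reductase that leads to anthocyanins and tannins, read 593, 341 and 571 units in KO open flowers, against 48.4, 79.1 and 67.9 in KO buds (2.65 ± 0.29, adjusted p = 1.7e-06). UF3GT, for the enzyme that adds xylose to anthocyanins, read 610.4, 373 and 346 units in KO open flowers, against 63.6, 32.9 and 49.6 in KO buds (2.81 ± 0.45). UGT75C1, for the anthocyanin 5-O-glucosyltransferase, read 273, 81.5 and 70.3 units in KO open flowers, against 7.38, 19.3 and 43.8 in KO buds (1.87 ± 0.55, adjusted p = 0.0202). With BAN these are the 4 rises. The UGT75C1 value of replicate 1 was more than 3 times the others, and its call was lost without that array (adjusted p = 0.132) or without replicate 1 or 2 of the buds (0.0928 and 0.0558). UGT78D2, for the flavonoid 3-O-glucosyltransferase, fell, with 389, 330.1 and 287 units in KO open flowers, against 644, 580.1 and 507 in KO buds (-0.76 ± 0.20). UGT78D1, for the flavonol rhamnosyltransferase, was not called at 0.23 ± 0.19. In OE 1 of the same 6 was called higher and 1 lower, with a median of 0.26, and in WT 4 and 1, with a median of 2.64. The difference of the stage change between KO and OE was called for 1 of the 6, BAN.

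**Figure D3:**
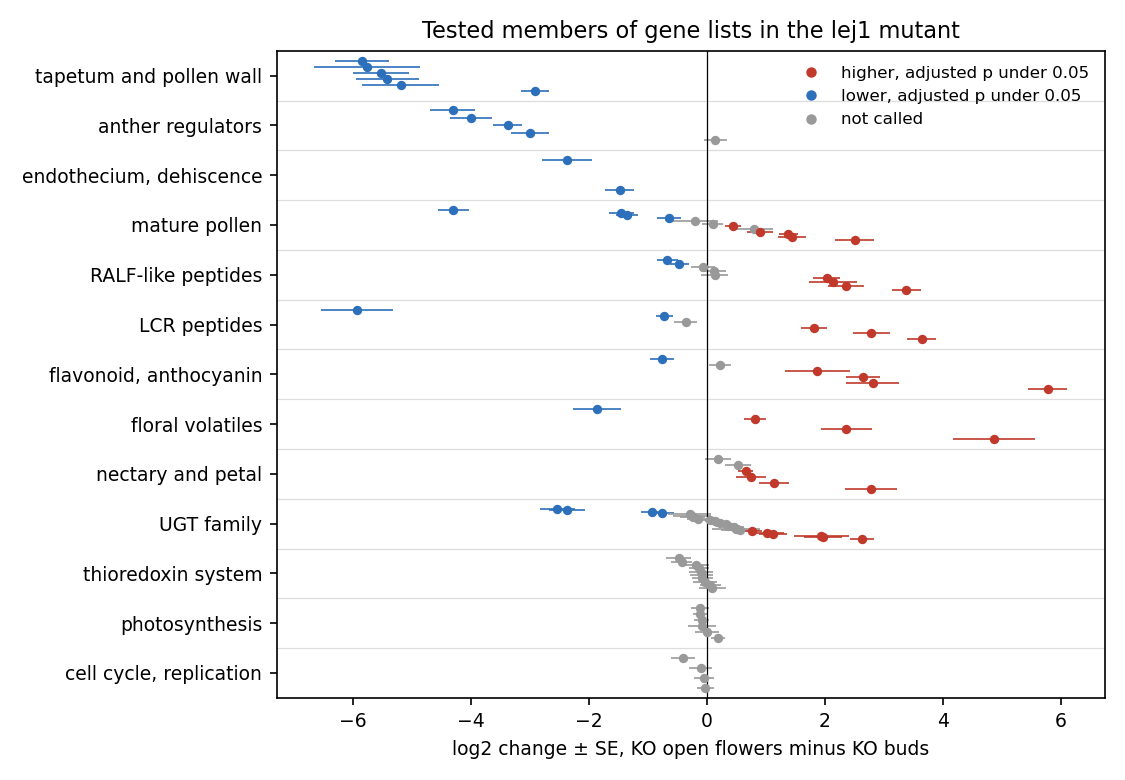
Log2 change between KO open flowers and KO buds with its SE for each tested member of 13 of the gene lists and symbol families, 1 point per gene, sorted within a list. Red and blue points were called higher and lower, grey points not called; all 6 tapetum points lie between -5.84 and -2.91, and no thioredoxin, photosynthesis or cell cycle point is coloured.

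Floral volatile genes had 4 tested members of 13 listed, 3 higher and 1 lower. Besides CYP71B31, TPS24, a terpene synthase gene, read 2343, 1381 and 1521 units in KO open flowers, against 229, 586 and 234 in KO buds (2.37 ± 0.43). TPS11, for the synthase of many floral sesquiterpenes, read 4244, 3973 and 4431 units in KO open flowers, against 2120.3, 2591 and 2478 in KO buds (0.81 ± 0.18). BSMT1, for the enzyme that makes methyl salicylate and methyl benzoate, read 117, 132 and 89.6 units in KO open flowers, against 692, 291 and 433 in KO buds (-1.85 ± 0.41). Terpene genes and the methyl ester gene thus moved in opposite directions, each without overlap between the stages.

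Of 9 nectary and petal genes 6 were tested and 4 rose, with a median of 0.71. SWEET9, for the transporter that exports sucrose into nectar, read 4450.5, 4298 and 2499 units in KO open flowers, against 329, 837 and 489 in KO buds (2.78 ± 0.44, adjusted p = 9.9e-05). SAG29, also known as SWEET15, read 975, 566 and 497 units in KO open flowers, against 319, 242 and 299 in KO buds (1.15 ± 0.25). The subtilase gene AT3G14067 changed by 0.66 ± 0.13. SWEET13 passed narrowly at 0.75 ± 0.26 (adjusted p = 0.0488), and its call was lost in 5 of the 6 fits without 1 KO array, with an adjusted p of 0.208 without replicate 1 of the open flowers, 0.0562 and 0.0590 without replicates 2 and 3, and 0.161 and 0.122 without replicates 2 and 3 of the buds. SWEET14 and the petal growth gene BPEp were not called (0.53 and 0.19). In the senescence list the transcription factor genes WRKY6 (1.86 ± 0.35) and WRKY53 (0.75 ± 0.22) were the 2 tested of 23, and both were higher. WRKY6 read 219, 265 and 193 units in KO open flowers, against 43.8, 45.4 and 62.7 in KO buds. The call of WRKY53 was lost without replicate 2 of the open flowers (adjusted p = 0.140) or replicate 3 of the buds (0.101).

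Of 23 regulators of the gynoecium and ovule 4 were tested, of which 1 rose and 1 fell. INO, for a YABBY factor of the outer integument of the ovule, read 263, 251 and 264 units in KO open flowers, against 100.2, 205 and 119.7 in KO buds (0.86 ± 0.22, adjusted p = 0.00737). SPT, for a bHLH factor of carpel margins, read 221, 309 and 292 units in KO open flowers, against 334, 391 and 417 in KO buds (-0.46 ± 0.14, adjusted p = 0.027). INO was no longer called without replicate 1 of the buds (adjusted p = 0.0510), nor SPT without replicate 1 of the open flowers (0.160) or replicate 2 or 3 of the buds (0.0811 and 0.113). ALC, of fruit opening, and the co-repressor gene SEU were not called (0.39 ± 0.18 and 0.07 ± 0.14).

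Hormone lists had few tested members. GH3.17, for an enzyme that conjugates auxin to an amino acid, read 1217, 1148 and 1123 units in KO open flowers, against 282, 171 and 165 in KO buds (2.45 ± 0.22, adjusted p = 1.9e-07). YUC2, for an enzyme of auxin synthesis, fell, with 115, 81.1 and 99.6 units in KO open flowers, against 167, 212 and 148 in KO buds (-0.74 ± 0.20), a call lost without replicate 2 of the open flowers (adjusted p = 0.0639) or replicate 2 of the buds (0.0708). GH3.3 and WES1, for related conjugating enzymes, were not called (0.11 ± 0.24 and 0.0041 ± 0.26), which completes the 4 tested of 31 auxin genes. GID1B, for a gibberellin receptor, read 217, 215 and 208 units in KO open flowers, against 140.4, 56.9 and 94.2 in KO buds (1.09 ± 0.23), while GID1A, for a related receptor, was not called at 0.19 ± 0.15. AIM1, for an enzyme of beta-oxidation that jasmonate synthesis needs, read 4018, 4158 and 4013 units in KO open flowers, against 2587, 3692 and 2394 in KO buds (0.51 ± 0.14), a call lost without replicate 1 or 3 of the buds (adjusted p = 0.0613 and 0.0851). OPCL1, of the same pathway, was not called at -0.15 ± 0.19. Of the jasmonate response genes THI2.1 rose, and the transcription factor genes MYC3 and MYC4 were not called (0.22 ± 0.14 and 0.53 ± 0.33). MYC4 was called with the KO arrays alone and a replicate block (limma adjusted p = 0.0362), but not with the block in all arrays. The fit of KO arrays with a block was chosen after the data were seen and has 2 residual degrees of freedom. EIN3, for the main transcription factor of ethylene signalling and the 1 tested of 22 ethylene genes, was not called at 0.33 ± 0.18 (adjusted p = 0.234), but was with a replicate block (adjusted p = 0.0381).

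Thioredoxins are the partners for which the CBSX proteins are known. The list of thioredoxin genes and of genes for their reductases and peroxiredoxins had 10 tested members of 26, none of which was called. Their changes ran from -0.47 to 0.09, with a median of -0.09 and SEs of up to 0.23. The largest was that of TRXF2, for a plastid thioredoxin f, with 853, 495 and 771 units in KO open flowers, against 986, 857 and 1054 in KO buds (-0.47 ± 0.21, adjusted p = 0.133). With the KO arrays alone and a replicate block, TRXF2 was called lower (limma adjusted p = 0.0382). That fit was chosen after the data were seen and has 2 residual degrees of freedom, and the block in all arrays did not call TRXF2. TO2, for a mitochondrial thioredoxin, had -0.42 ± 0.18 (adjusted p = 0.119), FTRB, for a subunit of ferredoxin-thioredoxin reductase, -0.14 ± 0.17, and ATHM2, for a plastid thioredoxin m, -0.17 ± 0.22. NTRC, for the plastid NADPH-thioredoxin reductase, had 0.09 ± 0.23, and 2CPA, for a 2-Cys peroxiredoxin, -0.08 ± 0.18. Differences of the size of these SEs were not detectable with 3 arrays a group. Of 4 tested genes of reactive oxygen turnover (27 listed) none was called, namely STZ, also known as the zinc-finger gene ZAT10 (0.71 ± 0.42), the ascorbate peroxidase genes SAPX (0.19 ± 0.16) and TAPX (-0.14 ± 0.19) and the glutathione reductase gene GR1 (0.31 ± 0.32). STZ was called higher with the KO arrays alone and a replicate block (limma adjusted p = 0.0238), but not with the block in all arrays.

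Photosynthesis genes likewise had no call among 6 tested of 33. PSAE-1, for a photosystem I subunit, read 10640.4, 11541 and 14031 units in KO open flowers, against 10262, 10762 and 10463 in KO buds (0.19 ± 0.13). LHCB4.1, for a light-harvesting protein, and PRK and SBPASE, for enzymes of the Calvin cycle, changed by -0.11 ± 0.12, -0.11 ± 0.16 and -0.08 ± 0.13. Their levels were high at both stages and overlapped. The 4 tested of 44 cell cycle and replication genes were not called: TOPII (-0.41 ± 0.20), PRL (-0.10 ± 0.19), and the Aurora kinase genes AUR1 (-0.03 ± 0.14) and AUR2 (-0.05 ± 0.17). TOPII was called lower with the KO arrays alone and a replicate block (limma adjusted p = 0.0434), but not with the block in all arrays. The meiosis genes PTD (-0.42 ± 0.20) and ATMND1 (-0.56 ± 0.34) were the 2 tested of 24 and were not called. None of 26 floral organ identity genes was tested: 4 of them are named on the array, UFO, CLV3, PTL and RBE, and these had 1.74 to 92.7 units on the KO arrays.

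Among enzyme and factor families taken by gene symbol, the glycosyltransferase genes with UGT symbols had 22 tested of 58, with 6 higher and 4 lower. UGT87A2, known to affect flowering time, read 584, 1019 and 882 units in KO open flowers, against 131, 98.8 and 123 in KO buds (2.63 ± 0.20), and UGT76E12 changed by 1.97 ± 0.32. UGT74F1, for an enzyme that glucosylates salicylate, read 16.9, 20.5 and 12.1 units in KO open flowers, against 169, 192 and 153 in KO buds (-2.53 ± 0.30), and UGT78D3, for a flavonol arabinosyltransferase, changed by -2.36 ± 0.31. Of the genes with CYP symbols, mostly those of cytochromes P450, 13 were tested of 241, with 4 higher and 1 lower. The 13 include CYP59 and CYP71, which are cyclophilin genes and were not called (-0.25 and -0.19). Besides CYP71B31, CYP71B38 (1.31 ± 0.32) and CYP78A9 (1.88 ± 0.58) were higher and CYP71B37 (-1.99 ± 0.41) lower, and the remaining rise was that of CYP71B27 (1.90 ± 0.61, or 1.30 without replicate 1 of the open flowers). Replicate 1 of the open flowers was the highest for CYP71B38, CYP78A9 and CYP71B27, and without it the calls of CYP78A9 and CYP71B27 were lost (adjusted p = 0.144 and 0.179). They were also lost without replicate 3 of the buds (0.0719 and 0.116), that of CYP78A9 without replicate 1 of the buds (0.0725) and that of CYP71B27 without replicate 2 (0.0748). Of 7 tested glutathione transferase genes (48 symbols) GSTU20 fell, with 693, 932 and 643 units in KO open flowers, against 1757, 1759.8 and 1481 in KO buds (-1.14 ± 0.25), and GSTU16, GSTL3 and GSTU18 were not called (0.77, 0.31 and 0.47); with a replicate block GSTU16 was called higher (limma adjusted p = 0.00438). WRKY20 and NAC014 were not called (0.11 and 0.10).

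The stage change of the mutant lay close to that of WT. Over the 15113 tested probe sets the 2 changes correlated at 0.969, a description across probe sets of the same arrays' design, which are not independent replicates. Of the 3160 calls in KO, 2728 were also called in WT and 2387 in both WT and OE, of which 2381 had the same direction in all 3 genotypes. Called in KO and in neither other genotype were 230 (99 higher, 131 lower), with a median size of 0.60 on the log2 scale, and 224 of them had the same sign in WT. Being called in KO alone does not show a difference, which was tested directly. Limma called 0 probe sets for the stage change of KO minus that of WT, and 145 had an unadjusted p under 0.05. The median SE of this difference was 0.26, and its lowest adjusted p was 0.0876.

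That lowest p was that of AT3G52870, a gene for an IQ-motif (calmodulin-binding) protein. It read 885, 714 and 788 units in KO open flowers, against 333, 325 and 319.5 in KO buds (1.24 ± 0.17, adjusted p = 2.4e-05). In WT it read 162, 127 and 91.5 units in open flowers, against 187, 154 and 139 in buds, and it was not called there (-0.32). The difference, KO minus WT, was 1.57 ± 0.24, and it passed without replicate 1 of the WT open flowers (1.74, adjusted p = 0.0146) and with 64 added units (1.38, adjusted p = 0.0232). The other differences with the smallest p were not called, each with an adjusted p of 1. AT5G13380, of the GH3 family, gave 1.55 ± 0.37: it fell in both genotypes, to 120.1, 50.4 and 50.6 units in KO open flowers, against 2564, 2324 and 2370.5 in KO buds. AT5G64870, of the flotillin-like family, gave 0.88 ± 0.23. On the negative side AT4G33380 gave -0.98 ± 0.30, the mitochondrial gene nad9 -0.88 ± 0.28 and OASA2, of the O-acetylserine lyase family, -1.10 ± 0.40.

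Between the stage changes of KO and OE, 40 probe sets differed (0.265% of those tested), 27 of them with a larger value in KO (0.179%) and 13 with a smaller one (0.086%), taken as KO minus OE. With a replicate block 132 differed, 84 positive and 48 negative. In 37 of the 40 the WT change was nearer to that of KO than to that of OE. Among probe sets of 1 gene the 2 largest differences were those of chitinase-family genes. AT2G43590 rose in KO (4.48) and not in OE, a difference of 3.79 ± 0.43 (adjusted p = 5.3e-04). In OE it had 66.9, 33.0 and 64.8 units in open flowers, against 49.9, 21.9 and 15 in buds. All of these OE values lay below the 40th percentile, and the bud means were 28.9 units in OE and 5.75 in KO. AT2G43620 read 948, 1546 and 1379 units in KO open flowers, against 113, 108 and 98.6 in KO buds. In OE it read 81.5, 44.5 and 45.4 units in open flowers, against 41.7, 76.8 and 132 in buds, and the difference was 3.77 ± 0.45 (adjusted p = 5.3e-04). The groups of KO open flowers and OE open flowers thus lay more than 10-fold apart for AT2G43620, with similar bud levels.

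BAN rose in both genotypes and by more in KO: OE had 204, 274 and 293 units in open flowers, against 21.0, 24.5 and 38.1 in buds, and the difference was 3.14 ± 0.46 (adjusted p = 0.00469). AT3G49270 gave 2.81 ± 0.50 and the peroxidase gene AT5G39580 2.45 ± 0.44. AT5G39580 read 138, 168 and 183 units in KO open flowers, against 28.6, 13.9 and 30.0 in KO buds. In OE it read 28.9, 22.5 and 25.7 units in open flowers, against 28.9, 24.0 and 54.8 in buds, all below the 40th percentile. Of the negative differences, AT1G33700, of the GBA2 family of glucosidases, read 2.53, 8.44 and 7.26 units in KO open flowers, against 172, 133 and 198 in KO buds. In OE it had 20.6, 4.33 and 3.20 units in open flowers, against 11.9, 22.1 and 17.3 in buds, below the 40th percentile at both stages, so no further fall could show there (-2.62 ± 0.47). The peroxidase gene AT4G11290 rose in OE, with 1554, 1765 and 1572 units in open flowers, against 129.8, 158 and 251 in buds. In KO it had 439.9, 253 and 189 units in open flowers, against 130.3, 198 and 173 in buds, and was not called (0.69 ± 0.26, adjusted p = 0.0723), and the difference was -2.43 ± 0.37. AT4G27435 gave -1.76 ± 0.22, CES, for a bHLH factor of brassinosteroid signalling, -1.36 ± 0.19, and AT1G47410 -1.30 ± 0.24. CES read 860.4, 874 and 755 units in KO open flowers, against 586, 516 and 701 in KO buds. In OE it read 2226, 2476 and 2407 units in open flowers, against 594, 656 and 733 in buds.

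The number of differences between KO and OE depended on single arrays. It was 26 without replicate 1 of the KO open flowers, 17 without replicate 3 of them, 22 and 18 without replicates 2 and 3 of the KO buds, 26, 26 and 25 without replicates 1 to 3 of the OE open flowers, and 25 without replicate 1 of the OE buds. Of the 10 genes named, AT3G49270, AT5G39580, AT1G33700 and AT1G47410 had 22 alternatives and the others 23, none leaving out a WT array alone. AT2G43590, AT2G43620, BAN, AT4G11290, AT4G27435 and CES kept the call of the difference in each of their 23. That of AT3G49270 was lost without replicate 1 or 3 of the KO open flowers, replicate 2 or 3 of the KO buds, replicate 2 of the OE open flowers or replicate 2 of the OE buds (adjusted p = 0.0526 to 0.0776). That of AT5G39580 was lost without replicate 3 of the KO open flowers, replicate 2 of the KO buds, replicate 2 or 3 of the OE open flowers or replicate 3 of the OE buds (0.0552 to 0.0885). That of AT1G33700 was lost in 9 of 22 alternatives, 6 of them the removal of 1 array (replicate 1 or 3 of the KO open flowers, 1 or 3 of the KO buds, 1 of the OE open flowers, 1 of the OE buds, 0.0525 to 0.0917), and that of AT1G47410 in 10 of 22, 9 of them such removals (all but replicate 2 of the KO open flowers, replicate 1 of the OE open flowers and replicate 3 of the OE buds, 0.0587 to 0.0917).

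**Figure D4:**
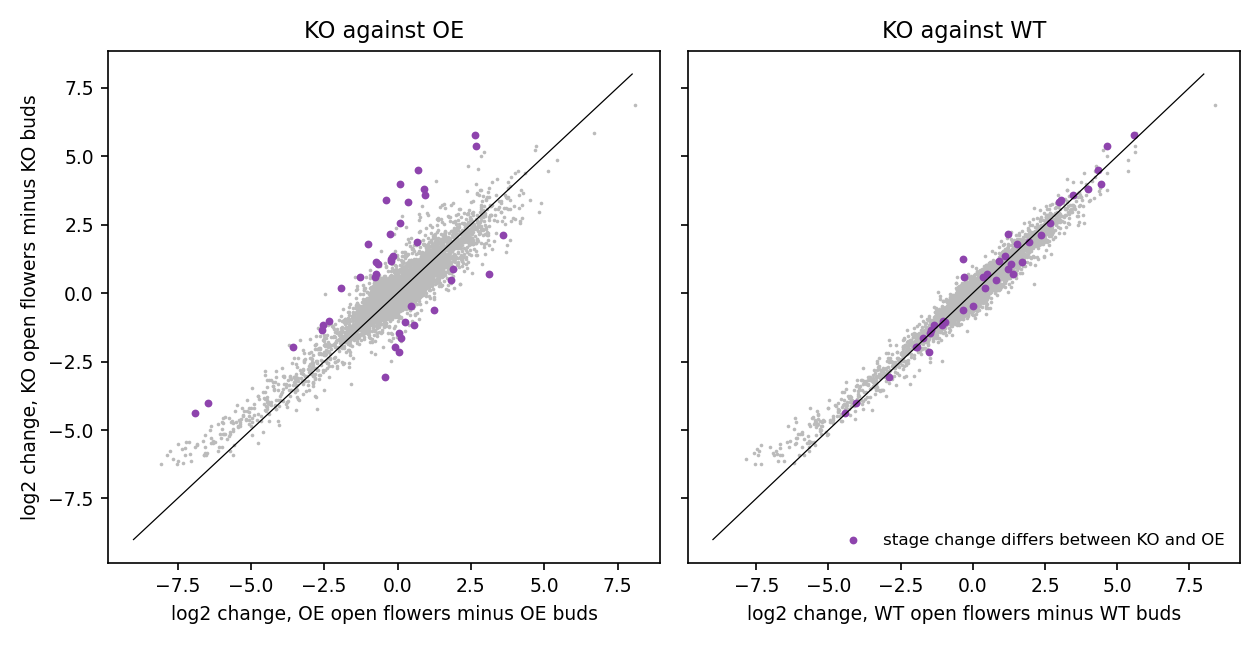
Log2 stage change in KO (vertical axes) against that in OE (left) and in WT (right), 1 point per tested probe set, with the line of equal change. The 40 purple points differ between KO and OE; in the left panel they lie off the line, and in the right panel 37 of them have a WT change nearer to that of KO than to that of OE.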

How the data were processed

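RNA was labelled with biotin from 5 µg of total RNA and hybridised to Affymetrix ATH1 arrays, 1 sample per array, per the labels' protocols. Values were deposited as linear intensities, 1 for each array and probe set; the software behind each intensity is not given in the sources used here, and equal trimmed means (values between the 2nd and 98th percentile) show that the authors scaled each array to 1 level. Groups and replicate numbers come from the titles. The free-text descriptions name wild-type buds for every sample, contradict most titles and were not used.

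From the deposited intensity, log2(intensity + 16) was fitted in R 4.3.3 with limma 3.58.1 and statmod 1.5.0: 6 group means, 18 arrays, 12 residual degrees of freedom, an intensity trend, and Benjamini-Hochberg adjustment over all tested probe sets. 1 probe set had an empty cell and was left out, and 7632 failed the filter. Errors beside log2 values are SEs of the fit. As a check of the code only, the fit was also run on simulated arrays with independent errors and no shared deviation by replicate number. Number of arrays limits the precision. Python 3.11.15, pandas 2.3.3, numpy 2.4.6 and matplotlib 3.10.9 made tables and figures.

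Names come from the platform annotation and TAIR10.1 locus tags in RefSeq. Of 13513 probe sets with 1 gene 13436 matched a locus tag, 503 name several genes and 8730 are unnamed. A gene in several probe sets was taken at its brightest. The members and the 23 gene lists were chosen with earlier results of these data known, and the 9 symbol families after the annotation was seen. Named are the 15 largest rises and falls among calls of 1 gene without overlap, the 5 brightest of each, up to 4 members of each list by smallest p, up to 5 calls of each sign in the difference to OE, and, with no call in the difference to WT, 3 of each sign by smallest p. Further list members are named to complete a count, after their values were seen. Product-name families and promoter motifs were planned and not run, as the tables used hold no product names or sequences.

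Same-numbered KO arrays of the 2 stages deviated together from their group means (correlations across probe sets 0.563, 0.233 and 0.233), so the numbers may pair the samples; this rests on the values, since no label says what a number stands for. Replicates 2 and 3 crossed gave 0.212 and 0.236, so these 2 cannot be told apart. Every change, SE and adjusted p comes from the fit without a replicate block unless stated; the block is an alternative, given beside a result whose call it changed. Other alternatives were the added units (1 or 64), the filter, centring, quantile normalization, the prior, fewer arrays in the fit, and leaving out each array.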

Additional observations from a re-analysis of the deposited data

Results flagged for a closer look

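Of the 40 probe sets (21 naming 1 gene) whose stage change in KO differed from that in OE by limma's test of the difference itself (adjusted p under 0.05), the 5 largest of each sign among those naming 1 gene are given here. Higher changes in KO were those of AT2G43590 (difference 3.79, KO minus OE, on the log2 scale), AT2G43620 (3.77), BAN (3.14), AT3G49270 (2.81) and AT5G39580 (2.45). Lower changes in KO were those of AT1G33700 (-2.62), AT4G11290 (-2.43), AT4G27435 (-1.76), CES (-1.36) and AT1G47410 (-1.30). The number of probe sets with such a difference, 40 of 15113, fell to 17 without replicate 3 of the KO open flowers.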

How the results depend on the processing

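The number of calls between the stages of KO, 3160, lay between 2613 and 2813 without 1 KO array, was 2777 with the KO arrays alone (4 residual degrees of freedom), 3020 with replicates 2 and 3 and 3900 with a replicate block, which kept all 3160. Centring gave 1767 higher and 1351 lower. Of 133 named results 107 kept direction and call in every alternative, 12 lost the call in some, 7 gained it and 7 turned sign. The sign changes were all of uncalled genes near 0: AUR1 was 0.0022 with centring and WES1 -0.0152 with quantile normalization, and without 1 array AUR1 ran from -0.12 to 0.0775, AUR2 from -0.15 to 0.0793, GH3.3 from -0.0889 to 0.36, LHCB4.1 from -0.20 to 0.0026, SEU from -0.015 to 0.14, TAPX from -0.25 to 0.0389 and WES1 from -0.33 to 0.26. The difference of KO and WT gave 1 call, positive, with 64 added units and 0 to 1 without 1 array, and 0 with a replicate block. That of KO and OE gave 65 (42 positive, 23 negative) with 64 added units, 132 (84 and 48) with a replicate block, 7 negative with the stricter filter, 17 to 48 without 1 array of KO or OE (13 to 34 positive, 4 to 14 negative) and 32 to 53 without 1 of WT (22 to 38 and 10 to 16). Of 54 list counts 31 stayed within 1.5 times. With the stricter filter, which tests fewer genes, anther regulators had 2 falls, endothecium 1 fall, gynoecium 0 rises, auxin 0 falls, gibberellin 0 rises and senescence 0 rises. With no filter lignin had 1 fall, meiosis 2 falls and auxin 2 falls. Replicates 2 and 3 alone gave gynoecium 0 rises and 0 falls, jasmonate synthesis 0 rises and senescence 1 rise, and the KO arrays alone gynoecium 0 falls, jasmonate synthesis 0 rises and senescence 1 rise. The KO arrays with a replicate block, chosen after seeing the data, gave 1 fall each in cell cycle and thioredoxin, 2 rises in jasmonate response, and 1 rise each in ethylene and reactive oxygen, and the replicate block in all arrays 1 rise in ethylene. Without 1 array auxin falls, gynoecium rises and falls and jasmonate synthesis rises ran from 0 to 1, and senescence rises from 1 to 2. Of the symbol families, RALFL falls (2) were 0 or 1 in 11 of 19 alternatives, WRKY rises (2) 0 or 1 in 5, CYP rises (4) 2 in 2, and GST rises (0) 1 in 3; UGT falls (4) were 1 and CYP falls (1) 0 with the stricter filter, and GST falls (1) 2 and WRKY falls (0) 1 with no filter. The causes were not tested. The replicate block in all arrays also called GSTU16 (adjusted p = 0.00438) and EIN3 (0.0381), and changed no other call of a named gene. No array has a count of reads: dim probe sets limit what a change can show.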
